A study of Mus musculus with 8 samples.

Results

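The tumour suppressor gene Trp53, which encodes the transcription factor p53, and 9 of its stress targets (Mdm2, Gdf15, Phlda3, Ccng1, Sesn1, Trp53inp1, Zmat3, Btg2 and Aen) were followed in RNA sequencing libraries of mouse kidney cells. The 10 genes were chosen by symbol from the 22274 gene rows of the deposited count table, and each symbol matched 1 row. The cells are a line that the labels call RFB, of cell type fibroblast. All 8 libraries come from cells given TGF-β, the cytokine best known for turning on matrix genes in kidney scarring. In 4 libraries it was the only labelled treatment, and in the other 4 the cells also received chaetocin, a compound from fungi that blocks SUV39 enzymes, which methylate lysine on histone H3. Neither dose nor duration stands in the labels, and no library without TGF-β was analysed here. Suv39h1 knockdown cells appear in the series' design text but in no sample label, so the labels do not tell whether either group carries a knockdown. Nothing in them says that the 4 libraries of a group are separate cultures, and p-values therefore measure only the spread between these libraries, which may be technical.

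In unstressed cells p53 is made continuously and destroyed at once, because Mdm2, a ubiquitin ligase that is itself a p53 target, marks it for the proteasome. DNA damage, nucleolar stress or oncogene activity frees p53 from Mdm2, and the protein then binds paired copies of a short half-site in the DNA of its targets. The control is exerted mainly on the protein, so the level of Trp53 transcript is not a measure of p53 activity. Several targets also answer to other pathways, Gdf15 to the ATF4 and CHOP stress factors and Btg2 to growth factor signals.

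Each TGF-β library held 20135312 to 23664084 counts. With chaetocin replicate 1 held 22591935 and the other 3 held 14421225 to 15084876. The 10 genes took 0.255% to 0.259% of all counts under TGF-β and 0.284% to 0.296% with chaetocin. Their exons overlap no exon of another gene in GENCODE M21, so the unknown strand setting of the counting does not bear on them through an annotated neighbour. The libraries were checked against markers of the labelled cell type. Vim, Fn1 and Acta2 were abundant, but the fibroblast genes Dcn and Lum had at most 4 and 1 counts in any TGF-β library, while the epithelial genes Cdh1 and Epcam, which a fibroblast should lack, stood at 650.5 ± 8.10 and 285.3 ± 7.44 CPM (read counts on a common library scale; SD, n = 4). Other markers went the other way under TGF-β. The fibroblast genes Tagln and Col1a1 stood at 1122 ± 8.18 and 233 ± 10.6 CPM. The tubule gene Umod was at 0.589 ± 0.192 CPM, and Aqp2 had 0 counts in every TGF-β library. The markers thus do not settle a cell type. The summed level of 15 fibroblast markers was 38920 to 40770 CPM under TGF-β and 18650 to 20240 CPM with chaetocin. Most of that sum is Fn1, at 35963 ± 822 and 16316 ± 466 CPM, and of 14 tested markers 7 were called lower, 3 higher (Acta2, Dcn and Fap) and 4 neither. The sum of 15 tubule epithelial markers was 5018 to 5209 and 7677 to 8003 CPM, of which Krt8 made up 1582 ± 29.6 and 3615 ± 46.6 CPM, and of 13 tested 5 were called higher and 7 lower. For 13 leukocyte markers the sums were 369.4 to 405.8 and 226.2 to 266.1 CPM, with Cd3e at 0 counts in every TGF-β library. Of 11 tested, 7 were lower, among them C1qa, C1qb and C1qc, and 4 higher (Cd68, Cd14, Itgam and Ptprc). For 7 endothelial markers the sums were 53.7 to 60.9 and 103 to 113 CPM, with 5 higher and 2 lower. These marker genes were named after their values were seen. The part of these shifts in the values below was not tested. In bulk RNA fewer cells of a type and less RNA per cell cannot be told apart.

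To show what lies in front of these genes, stretches before the transcription start are printed for the genes on which the results turn. Trp53 itself, its antagonist Mdm2 and Ccng1 are shown because a p53 half-site consensus lies there, and Gdf15 because it changed most. Btg2 is shown because it holds a match to TGACGTCA, the consensus of the cyclic AMP response element. Sequences are from RefSeq on GRCm38.p6, 5′ to 3′ on the gene's strand, cut where an annotated exon begins, with the matched motif in capitals and the rest in lower case. Position -1 is the base before the start. The Trp53 stretch is chr11:69580256-69580358 on the plus strand, and the others lie on the minus strand at chr10:117710759-117711008 (Mdm2), chr11:40755312-40755536 (Ccng1), chr8:70632457-70632706 (Gdf15) and chr1:134079156-134079405 (Btg2).
Trp53: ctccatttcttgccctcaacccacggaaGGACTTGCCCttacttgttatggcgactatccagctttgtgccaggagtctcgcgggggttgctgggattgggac
Mdm2: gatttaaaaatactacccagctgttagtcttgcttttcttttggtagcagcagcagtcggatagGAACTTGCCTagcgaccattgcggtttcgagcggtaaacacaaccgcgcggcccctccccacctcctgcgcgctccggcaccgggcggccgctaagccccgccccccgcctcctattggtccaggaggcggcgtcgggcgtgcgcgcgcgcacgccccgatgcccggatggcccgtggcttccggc
Ccng1: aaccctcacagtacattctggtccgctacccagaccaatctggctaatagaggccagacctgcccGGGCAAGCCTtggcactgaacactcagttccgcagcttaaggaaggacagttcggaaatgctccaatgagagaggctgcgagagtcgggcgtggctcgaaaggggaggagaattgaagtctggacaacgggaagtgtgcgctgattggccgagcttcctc
Gdf15: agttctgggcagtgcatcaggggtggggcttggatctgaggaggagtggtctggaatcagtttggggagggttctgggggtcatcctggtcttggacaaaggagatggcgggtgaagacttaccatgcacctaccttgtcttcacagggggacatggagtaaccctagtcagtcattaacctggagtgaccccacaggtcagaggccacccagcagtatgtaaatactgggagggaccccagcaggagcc
Btg2: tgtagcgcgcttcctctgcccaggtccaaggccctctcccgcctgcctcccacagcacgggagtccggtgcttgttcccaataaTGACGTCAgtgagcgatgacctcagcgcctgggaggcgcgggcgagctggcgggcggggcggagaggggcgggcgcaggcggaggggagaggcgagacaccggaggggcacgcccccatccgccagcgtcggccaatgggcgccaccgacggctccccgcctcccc

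A window from 250 bases before to 50 after the start was given for 8 of the 10 genes, in 11 windows. The p53 half-site consensus, which reads alike on both strands, had a match in 5 of the 8 genes. In Trp53 the match began at -75 (GGACTTGCCC), in Mdm2 at -186 (GAACTTGCCT) and in Ccng1 at -185 (GGGCAAGCCT). In Sesn1 1 of 2 windows held one (AAGCTTGTTT, at -173), and in Aen 1 match (GGGCTTGTCC) fell in both of 2 overlapping windows, at 11 or -121 depending on the start. Gdf15, Phlda3 and Btg2 held none. Among all 27025 genes with such a window 9.55% had a match, and 20 genes (0.074%) had a pair with at most 13 bases between, which none of the 8 had. Only exact matches were counted, so a pair in which either copy departs from the consensus was not found by this search. In Ccng1 the bases directly before the match, agacctgccc, depart from the consensus at 1 base. The element TGACGTCA was found in Btg2, at -166, and in 2.03% of all genes, searched on both strands. TGACNNNGC, the core of the antioxidant response element, was found in Trp53 at -122, outside the printed stretch, and in 14% of all genes. TGATGCAA, a form of the element bound by ATF4, was in none of the 8 and in 1.03% of all genes. A match is a description of letters, and binding was not measured here.

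The question of the comparison is how TGF-β-treated cells differ when the inhibitor is present. Trp53 and Gdf15 were higher with chaetocin, while Phlda3, Trp53inp1 and Zmat3 were lower, under every scaling and tool tried. Mdm2, Ccng1 and Btg2 had log2 fold changes between -0.16 and -0.10, and their call as lower rests on how the libraries are scaled. Sesn1 and Aen were not called. By edgeR's quasi-likelihood test with Benjamini-Hochberg adjustment over 14608 tested genes, 2 of the 10 genes were called higher and 6 lower, at an adjusted p under 0.05. Over all tested genes 80.7% were called, 42% higher and 38.8% lower, so that 8 of 10 is close to the share among genes at large. The groups did not overlap in CPM in the same 8 genes, against 74.7% of all tested genes. Only Gdf15 was called with a fitted fold of at least 2, against 24.6% of all tested genes, and the median size of the log2 change was 0.23 in the 10 genes and 0.45 over all. The median log2 fold change was -0.11, and 0.02 over all tested genes.

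**Figure D1:**
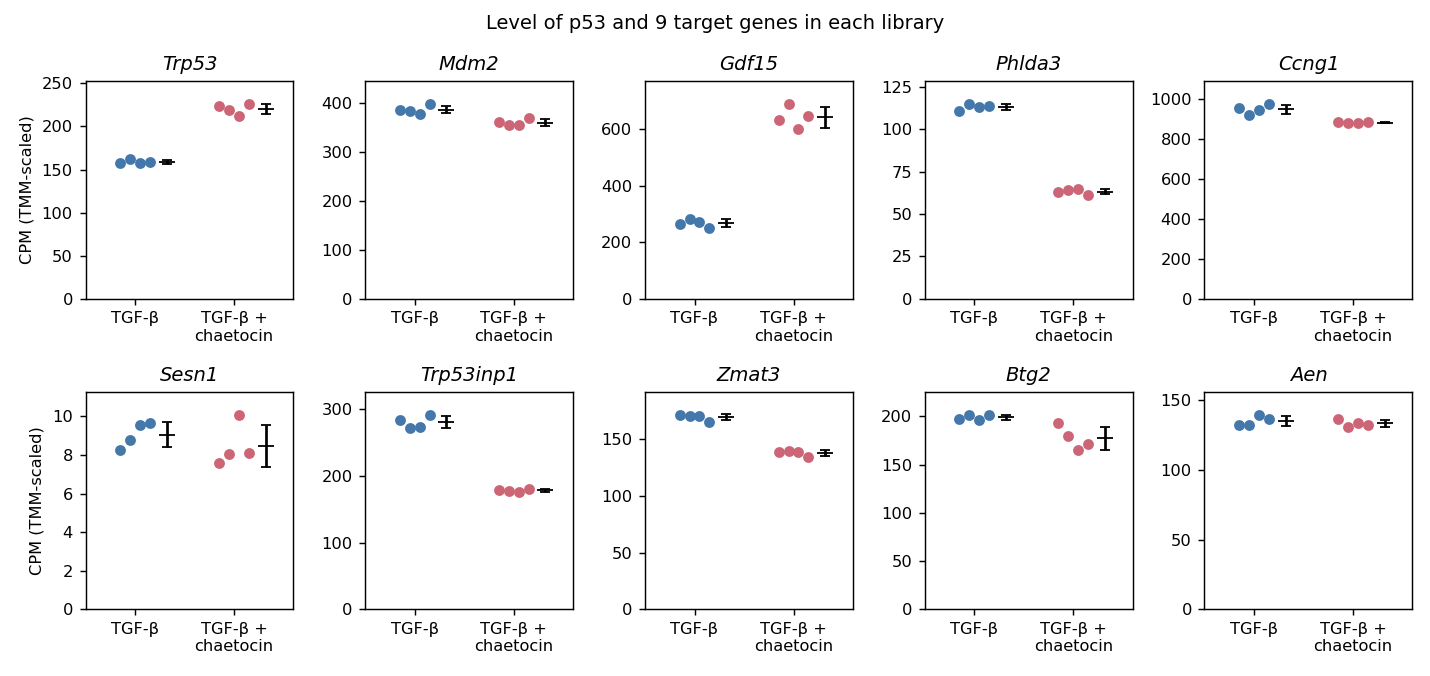
Level of each of the 10 genes in each library, in CPM after TMM scaling, with an axis from 0 in every panel. Points are the 4 libraries of a group in order of replicate number and the black mark is the mean ± SD. Trp53 and Gdf15 lie higher with chaetocin, Phlda3, Trp53inp1 and Zmat3 lower, and Sesn1 and Aen overlap.

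Trp53 encodes the transcription factor at the centre of the pathway. Its level was 158, 162, 157 and 159 CPM in TGF-β replicates 1 to 4 and 224, 220, 212 and 226 CPM with chaetocin. The 4 chaetocin libraries all lay above the 4 others, and the gap between the groups was several times the spread within either. The fitted log2 fold change was 0.47 ± 0.03 (SE), a 1.39-fold rise with a 95% interval of 1.335 to 1.44 (edgeR adjusted p = 3.3e-15). Permuting the 8 libraries exactly (two-sided, on log2 CPM) gave p = 0.0286, the smallest value that 4 against 4 libraries allow. The gene (ENSMUSG00000059552) is protein-coding and lies on chromosome 11, positions 69580359 to 69591873, plus strand, in GRCm38.

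Mdm2 encodes the ligase that holds p53 down and closes its feedback loop. Its level was 386, 385, 378 and 397 CPM under TGF-β and 360, 354, 355 and 369 CPM with chaetocin. The groups did not overlap, but the highest chaetocin library and the lowest TGF-β library were close. This gave a log2 fold change of -0.10 ± 0.02 (SE; adjusted p by edgeR = 2.5e-04), or 93% of the TGF-β level with a 95% interval of 90% to 96.2%. Total-count scaling put it at 0.01, which missed the threshold (adjusted p = 0.695 in edgeR), since that scaling places all values 0.11 higher on the log2 scale and moves the median of all tested genes from 0.02 to 0.14. Measured from the median gene, Mdm2 was at -0.13 under both scalings, as it must be when all genes shift alike, so this does not check the fall. The value from the median ranged from -0.36 in DESeq2 to -0.06 with limma on log2(FPKM + 1). In DESeq2 Mdm2 itself was at -0.10, as in the main fit, while the median was 0.26 over genes not filtered by expression. edgeR without the filter also gave -0.36 from the median, which was 0.21 there. The low end of the range thus goes with the set of genes behind the median. The authors' deposited table has a log2 ratio of 0.01 beside an FDR of 4.8e-05 for Mdm2, from a test that it does not name. Mdm2 lies on chromosome 10, positions 117688875 to 117710758, minus strand.

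The level of Mdm2 relative to Trp53 does not depend on library scaling. In FPKM, which divides by gene length as well as depth, the ratio of Mdm2 to Trp53 was 1.41, 1.36, 1.38 and 1.44 in the TGF-β libraries and 0.924, 0.926, 0.962 and 0.939 with chaetocin. All 4 ratios were above 1 without chaetocin and all 4 below 1 with it, with means of 1.40 ± 0.0324 and 0.938 ± 0.0175 (SD, n = 4 per group). The side of 1 on which a ratio falls depends on the gene lengths behind the FPKM, which were not checked here. In CPM, not divided by length, Mdm2 was above Trp53 in both groups. The means were 387 and 159 CPM under TGF-β and 360 and 220 CPM with chaetocin. The ratio shows that the transcripts changed unequally and not which of them moved.

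Gdf15 encodes a secreted stress cytokine of the TGF-β superfamily and had the largest change of the 10. Its level was 265, 283, 272 and 249 CPM under TGF-β and 634, 688, 599.6 and 645 CPM with chaetocin. The lowest chaetocin library was more than 2 times as high as any TGF-β library. On the log2 scale the difference was 1.26 ± 0.03 (SE; adjusted p by edgeR = 1.8e-22; exact permutation p = 0.0286), a fold of 2.40 with a 95% interval of 2.29 to 2.52. In size it exceeded 80.6% of the changes of all tested genes, so larger changes were common in these libraries. The spread between libraries, 5.27% and 5.68% of the mean, was above the 1.34% and 0.958% that counting alone gives. Gdf15 lies on chromosome 8, positions 70629393 to 70632456, minus strand.

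Phlda3 and Trp53inp1 were the targets that fell most. Phlda3 encodes a small lipid-binding protein that restrains the kinase AKT. Its level was 111, 115, 113 and 114 CPM under TGF-β and 62.8, 64.4, 64.9 and 61.2 CPM with chaetocin. The groups were far apart, and the spread within each was no more than counting noise. The log2 fold change was -0.84 ± 0.03 (SE; adjusted p by edgeR = 5.4e-19; exact permutation p = 0.0286), which leaves 55.9% of the TGF-β level. Trp53inp1 encodes a nuclear cofactor that promotes p53-dependent cell death and also acts in autophagy. Its level was 284, 273, 274 and 292 CPM under TGF-β and 179, 177, 177 and 181 CPM with chaetocin. The 4 chaetocin values had an SD of 1.07% of their mean and lay well below every TGF-β library. The fitted log2 fold change was -0.65 ± 0.03 (SE; adjusted p by edgeR = 1.9e-18; exact permutation p = 0.0286), or 63.6% of the TGF-β level. Phlda3 lies on chromosome 1, positions 135766119 to 135769136, and Trp53inp1 on chromosome 4, positions 11156431 to 11174379, both on the plus strand.

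Zmat3 encodes a zinc finger RNA-binding protein through which p53 affects splicing and transcript stability. Its level was 171, 169.8, 170.4 and 165 CPM under TGF-β and 138, 139, 139 and 134 CPM with chaetocin. In each group the fourth library was the lowest, and the groups were separated by more than their spread. This gave a log2 fold change of -0.30 ± 0.03 (SE; adjusted p by edgeR = 7.6e-11; exact permutation p = 0.0286), and -0.18 with total-count scaling, where it was still called lower. Zmat3 lies on chromosome 3, positions 32334792 to 32366014, minus strand.

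Ccng1 encodes cyclin G1, a partner of protein phosphatase 2A that acts back on Mdm2, and was the most abundant of the 10 in counts. Its level was 956, 917, 943 and 971.5 CPM under TGF-β and 882, 876, 878 and 883 CPM with chaetocin. The chaetocin libraries were nearly equal, with an SD of 0.361% of the mean, and lay below all TGF-β libraries. On the log2 scale the difference was -0.11 ± 0.02 (SE; adjusted p by edgeR = 5.7e-05), and 0.01 with total-count scaling, where it was not called (edgeR adjusted p = 0.731). Relative to the median gene it was -0.13 under both, which the common shift makes certain. In other settings that value ranged from -0.37 in DESeq2 to -0.06 with limma on log2(FPKM + 1). Ccng1 itself was at -0.10 in DESeq2, where the median over genes not filtered by expression was 0.26. edgeR without the filter gave -0.36 from the median. Ccng1 lies on chromosome 11, positions 40748552 to 40755311, minus strand.

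Btg2 encodes an antiproliferative protein that recruits the deadenylation machinery to transcripts. Its level was 197, 201, 196 and 201 CPM under TGF-β and 193, 179, 165 and 172 CPM with chaetocin. Chaetocin replicate 1 came close to the TGF-β libraries, and the chaetocin group varied by 6.82% of its mean against 1.35% in the other. The log2 fold change was -0.16 ± 0.03 (SE; adjusted p by edgeR = 1.1e-04), and -0.05 with total-count scaling, where it was not called (edgeR adjusted p = 0.202). Btg2 lies on chromosome 1, positions 134075170 to 134079120, minus strand.

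Aen encodes an exonuclease that acts in p53-dependent cell death. Its level was 132, 132, 139 and 136 CPM under TGF-β and 137, 130.2, 134 and 132 CPM with chaetocin. The groups overlapped. The fitted log2 fold change was -0.02 ± 0.03 (SE; adjusted p by edgeR = 0.578; exact permutation p = 0.457), with a 95% interval of -0.08 to 0.04. With total-count scaling it was 0.10 and was called higher (edgeR adjusted p = 0.00338), so that its direction also rests on the scaling. Aen lies on chromosome 7, positions 78895854 to 78911209, plus strand.

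Sesn1 encodes a sestrin, a stress protein that restrains the growth kinase complex mTORC1. It was the scarcest of the 10, with 170 to 220 counts per library under TGF-β and 126 to 178 under both agents. Its level was 8.27, 8.76, 9.53 and 9.68 CPM under TGF-β and 7.60, 8.05, 10.1 and 8.10 CPM with chaetocin. The highest value of all came from a chaetocin library and the groups overlapped. This gave a log2 fold change of -0.11 ± 0.10 (SE; adjusted p by edgeR = 0.315; exact permutation p = 0.343), and the 95% interval of -0.32 to 0.10 allows a fall to 80.1% or a rise to 107% of the TGF-β level. At this depth counting alone gives a spread of 7.27% and 8.35% of the mean, so a change of the size seen in Mdm2 was not detectable. Without chaetocin replicate 3, the highest library, the log2 fold change was -0.20, and without chaetocin replicate 1, the lowest, it was -0.06, both uncalled. With total-count scaling the value was 0.003. Sesn1 lies on chromosome 10, positions 41809935 to 41908424, plus strand.

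**Figure D2:**
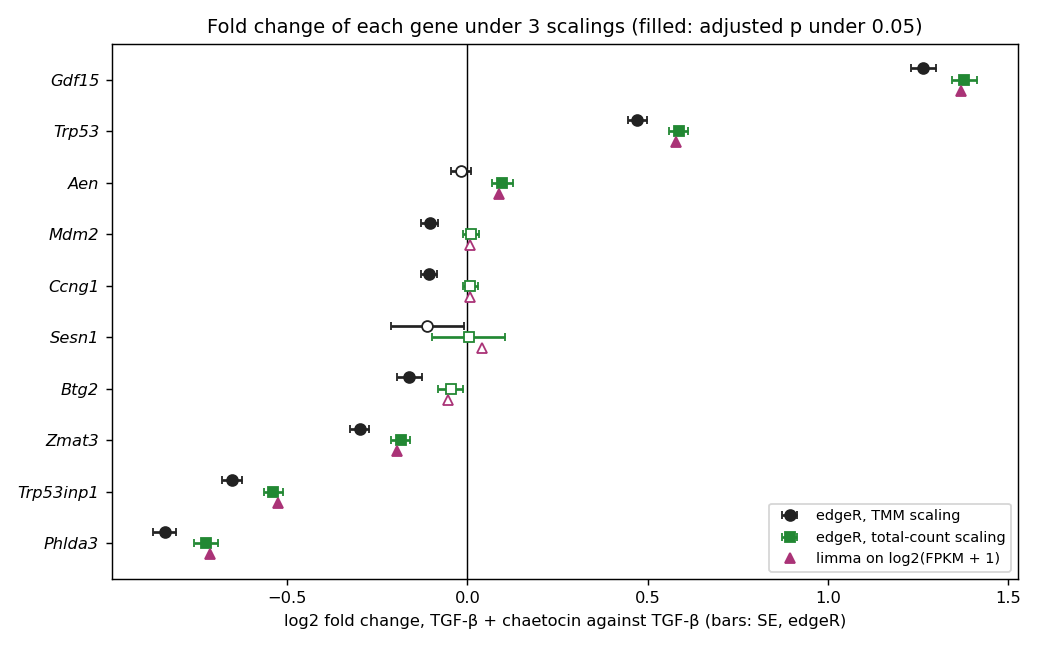
Log2 fold change of each gene, chaetocin with TGF-β against TGF-β, by edgeR with TMM scaling (circles), edgeR with total-count scaling (squares) and limma on log2(FPKM + 1) (triangles). Filled symbols have an adjusted p under 0.05 and bars are the SE of the edgeR fits. Gdf15, Trp53, Zmat3, Trp53inp1 and Phlda3 are filled on the same side of 0 in all 3, and the other 5 genes lie near 0.

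Transcript levels of different genes can be compared only per gene length, and the authors' FPKM values give this, by lengths that were not checked here. Under TGF-β the order was Ccng1 at 259 ± 5.81 FPKM (SD, n = 4), Gdf15 at 177 ± 9.98, Mdm2 at 120.01 ± 2.38, Trp53 at 85.9 ± 1.38, Phlda3 at 75.8 ± 1.46, Btg2 at 69.7 ± 1.02, Trp53inp1 at 49.9 ± 1.51, Aen at 49.5 ± 1.33, Zmat3 at 22.1 ± 0.978 and Sesn1 at 3.01 ± 0.210 FPKM. Of these neighbours Trp53inp1 and Aen overlapped in their libraries, and the others did not. With chaetocin Gdf15 came first, at 458 ± 26.4 FPKM, ahead of Ccng1 at 260.3 ± 0.620. Trp53, at 129 ± 3.55 FPKM, and Mdm2, at 120.7 ± 2.21, took the next places. Their ranges overlapped between libraries, but within each chaetocin library Trp53 was the higher. Btg2 followed at 67.2 ± 4.49 FPKM, Aen at 52.7 ± 1.23, Phlda3 at 45.9 ± 1.28, Trp53inp1 at 34.3 ± 0.329, Zmat3 at 19.2 ± 1.08 and Sesn1 at 3.14 ± 0.455. Phlda3 thus stood above Btg2 and Aen without chaetocin and below both with it. By FPKM, 8 of the 10 ranked high among the tested genes in both groups, from the 84.4th percentile for Trp53inp1 with chaetocin to the 99.3rd for Gdf15. Zmat3 lay at the 76.3rd and 71.8th and Sesn1 at the 33.4th and 31st.

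**Figure D3:**
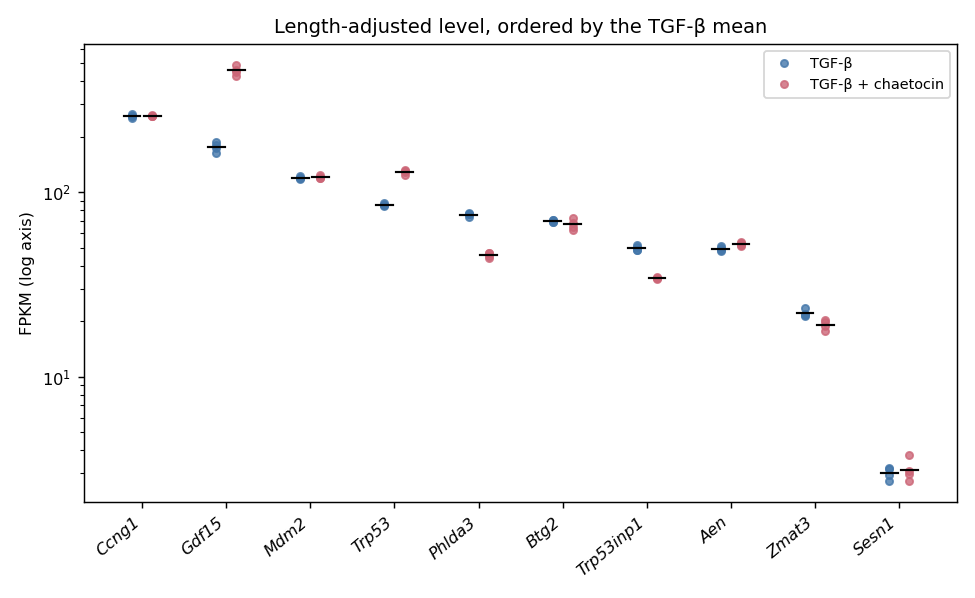
Length-adjusted level in FPKM on a log axis, with the genes ordered by their mean under TGF-β. Points are libraries and bars are group means. Gdf15 passes Ccng1 with chaetocin, Trp53 rises to the level of Mdm2, and Sesn1 stays lowest at about 3 FPKM.

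Genes with a pattern like that of Trp53 were sought by Pearson's r of log2 CPM over the 8 libraries. The 9637 genes compared averaged at least 3 in log2 CPM and bore no predicted or clone name. Most alike among them was Klf13, a zinc finger transcription factor, with r = 0.999. Fos, a component of AP-1, and Thap12 followed, with r of 0.999 and 0.998. Their log2 fold changes were 0.64, 2.10 and 0.70, against 0.47 for Trp53. Of the 9637 genes compared, 534 had r above 0.99. The 8 points fall into the 2 treatment groups, which the named genes separate as Trp53 does.

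Regulators of p53 were read from the same fit as a list of 28 genes by role. All 28 could be tested, and 8 were called higher and 15 lower with chaetocin (82.1% called against 80.7% of all tested genes, median log2 fold change -0.11). Under total-count scaling the split was 12 up and 11 down, so the balance of the list, and of the groups by role that follow, rests on scaling. The share higher among called genes went from 34.8% to 52.2% in the list and from 52% to 61.4% over all genes. Among 7 genes for kinases and the phosphatase Ppm1d, 3 rose and 4 fell. Atm, the kinase that reports DNA breaks to p53, rose from 45.8 ± 1.98 to 78.9 ± 2.59 CPM (mean ± SD of 4; adjusted p = 2.5e-16 in edgeR, log2 fold change 0.78 ± 0.04 SE). Hipk2, which phosphorylates p53 in its death-promoting mode, fell from 196 ± 6.18 to 97.4 ± 0.840 CPM (adjusted p = 7.2e-22 in edgeR, log2 fold change -1.01).

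Of 4 cofactors that bind p53, Trp53bp1, better known as the repair scaffold 53BP1, fell from 128 ± 2.37 to 56 ± 0.435 CPM (adjusted p = 1.1e-22 in edgeR, log2 fold change -1.19 ± 0.03 SE). Of 7 enzymes that acetylate, deacetylate or methylate p53, 3 rose and 4 fell. Kmt5a, a methyltransferase for histone H4 that also modifies p53, rose from 135 ± 1.92 to 203 ± 3.49 CPM (adjusted p = 1.5e-17 in edgeR, log2 fold change 0.59). In the ubiquitin group of 5 genes none rose and 3 fell. Among them Mdm4, the partner of Mdm2 that masks the p53 activation domain, fell from 157 ± 4.78 to 101 ± 4.76 CPM (adjusted p = 4.8e-16 in edgeR, log2 fold change -0.63), and the deubiquitinase Usp7 was at 211.5 ± 2.41 and 211.2 ± 9.08 CPM. Of 5 proteins that act on Mdm2, Cdkn2a, whose locus also encodes ARF, fell by 1.04 on the log2 scale, while the ribosomal protein genes Rpl5 and Rpl11 were not called. Usp7, Rpl5 and Rpl11 were called higher under total-count scaling, at 0.11, 0.10 and 0.15. Gene-level counts do not separate ARF from the other product of Cdkn2a. Mdm4, Usp7, Cdkn2a, Rpl5 and Rpl11 were chosen after their values were seen, as was the division of the lists by role.

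Other p53 targets were taken as a list of 42 genes, all of which could be tested. With chaetocin 14 were called higher and 18 lower (76.2% called, median log2 fold change -0.01), and with total-count scaling 19 and 12, so its balance too, and the counts by role, rest on the scaling. Cdkn1a, the p21 inhibitor of cyclin-dependent kinases and the textbook arrest target, was at 545, 555.5, 553 and 553 CPM under TGF-β and 462.6, 448, 449 and 458 CPM with chaetocin. No chaetocin library reached the TGF-β range, and the log2 fold change was -0.28 ± 0.02 (SE; adjusted p by edgeR = 3.2e-12), close to that of Zmat3. Of the 9 cell cycle targets, 3 rose and 4 fell. Gadd45a, chosen after its values were seen, had the largest fall of the list, by 1.61 on the log2 scale.

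The 13 targets that act in cell death were divided, with 4 higher, 5 lower and 4 not called. Pmaip1, which encodes the BH3-only protein NOXA, fell from 654 ± 16.8 to 264 ± 7.04 CPM (mean ± SD of 4; adjusted p = 6.4e-26 in edgeR, log2 fold change -1.31 ± 0.03 SE). Bax and Bbc3, the latter encoding PUMA, rose by 0.75 and 0.55 on the log2 scale, and Apaf1, the apoptosome scaffold, fell by 0.64. The death receptor gene Fas, at 3.41 ± 0.404 and 2.57 ± 0.418 CPM, had overlapping groups and was called lower with TMM (adjusted p = 0.0345 in edgeR) but not with total-count scaling (adjusted p = 0.130 in edgeR). Tnfrsf10b, another death receptor gene, was at 90.8 ± 4.90 and 91 ± 0.885 CPM, and was called higher, at 0.12, only with total-count scaling. These 5 were chosen after their values were seen. Of 5 repair and nucleotide supply targets, 1 rose and 4 fell.

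Among 9 targets in metabolism and redox control, 4 rose and 3 fell. Gls2, a mitochondrial glutaminase, rose from 0.8295 ± 0.279 to 16 ± 1.41 CPM, 19.0-fold (adjusted p = 7.6e-20 in edgeR, log2 fold change 4.25 ± 0.15 SE), on 11 to 26 counts per TGF-β library. Among the remaining 6, Pml, the organizer of PML nuclear bodies and also an interferon-induced gene, rose from 52 ± 1.17 to 118 ± 5.18 CPM (adjusted p = 3e-21 in edgeR, log2 fold change 1.18).

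The KEGG annotation in the deposited table gave another view of the pathway, added after the data were seen. It places 5 of the 10 genes (Trp53, Mdm2, Ccng1, Sesn1 and Zmat3) in the p53 signaling pathway. Of 72 tested genes with that annotation, 25 were called higher and 36 lower, 84.7% in all against 80.7% of all tested genes. Their median log2 fold change was -0.11. This split was not counted under total-count scaling, which places all values 0.11 higher, so its balance cannot be read apart from the scaling. Among cyclin genes Ccne2 and Ccnd1 rose by 2.68 and 1.30 on the log2 scale, while Ccnd2 fell by 0.70. Among caspase genes, Casp9 rose by 0.84, while Casp8 fell by 0.58. Ccne2, Ccnd1, Ccnd2, Casp9 and Casp8 were chosen after their values were seen.

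**Figure D4:**
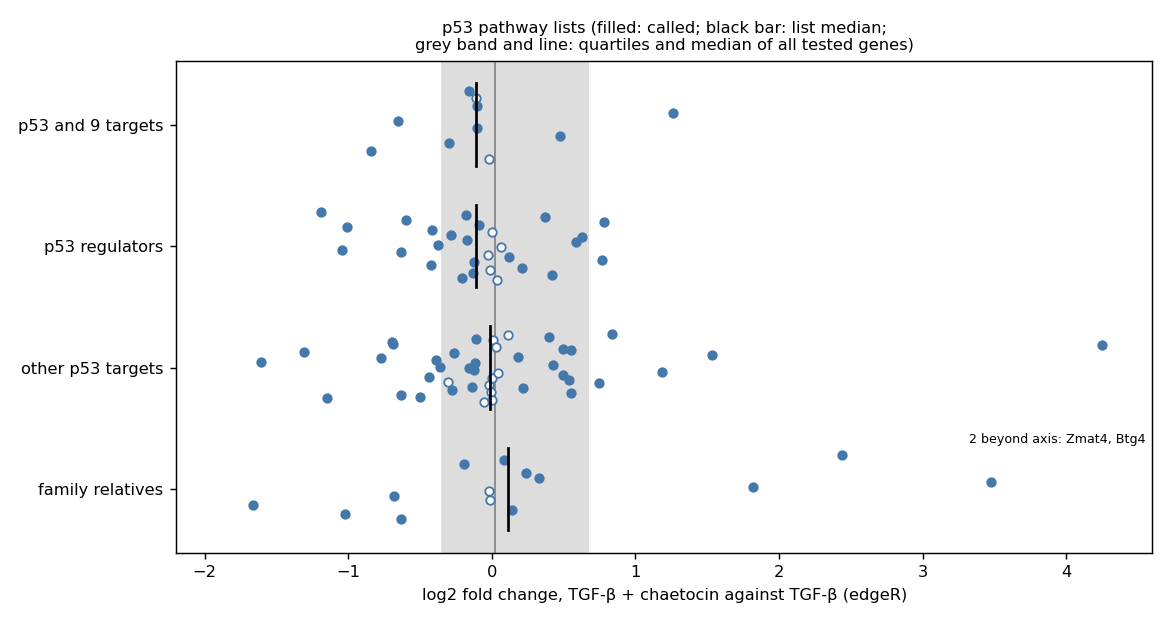
Log2 fold change (edgeR, TMM scaling) of the 10 genes, 28 regulators, 42 other targets and 16 tested family relatives. Filled points were called, black bars are list medians, and the grey band and line are the quartiles (-0.35 and 0.67) and median of all tested genes. Each list spreads to both sides of 0, and Zmat4 and Btg4 lie beyond the axis.

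Close relatives of the 10 genes in their families were read from the same fit. Of 17 relatives 16 could be tested, of which 9 were called higher and 5 lower, 87.5% in all against 80.7% of all tested genes. The median log2 fold change was 0.11, also with Btg4 at its bound. With total-count scaling 11 were higher and 4 lower. All tested relatives are named by family, beyond the rule for named genes, with Mdm4, one of the 5, given above. Among sestrins, Sesn3 fell from 519 ± 13.3 to 164 ± 4.02 CPM (adjusted p = 8e-28 in edgeR, log2 fold change -1.66 ± 0.03 SE), whereas Sesn2 was not called, at -0.02, and was called higher, at 0.10, with total-count scaling. Per length Sesn3 was the highest sestrin under TGF-β, at 63.2 ± 1.29 FPKM beside 27.5 ± 1.04 for Sesn2 and 3.01 ± 0.210 for Sesn1. With chaetocin Sesn2, at 29.4 ± 0.252 FPKM, stood above Sesn3, at 23.9 ± 0.467.

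Trp53inp2, an autophagy cofactor, fell together with Trp53inp1, from 259 ± 5.53 to 127 ± 2.20 CPM (adjusted p = 5.9e-23 in edgeR, log2 fold change -1.02). Beside Phlda3, Phlda1 was called lower, at -0.19, but not with total-count scaling, at -0.08. Phlda2 rose by 1.82 on the log2 scale, on 3 to 8 counts per TGF-β library. Beside Ccng1, cyclin G2 (Ccng2) rose by 0.08. In the family of Btg2, Btg1 fell by 0.68, while Btg3, Tob1 and Tob2 rose by 0.24, 0.32 and 0.14, and Btg4 had 0 counts in every TGF-β library and 14 to 23 with chaetocin, at least 32.1-fold higher when 3 counts are taken over the TGF-β group. Isg20, an interferon-induced exonuclease related to Aen, rose from 3.08 ± 0.488 to 34.4 ± 2.41 CPM (adjusted p = 4.2e-23 in edgeR, log2 fold change 3.48 ± 0.09 SE), and Isg20l2 was not called, at -0.01, but was called higher, at 0.10, with total-count scaling. Zmat4, a relative of Zmat3, had 0 to 3 counts per TGF-β library and 66 to 97 with chaetocin. Of the p53 paralogs, Trp63 rose by 2.43 from 5 to 8 counts per TGF-β library, and Trp73, with 0 counts under TGF-β and 3 to 7 with chaetocin, was too scarce to test. Both stayed far below Trp53 per length, at 0.398 ± 0.0830 and 0.095 ± 0.0854 FPKM with chaetocin.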

How the data were processed

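Gene expression was measured by RNA sequencing in 8 libraries, 4 per treatment label. Per the labels' protocols, RNA came from RNeasy columns and was converted to libraries by a SMARTER mRNA kit. The submitters' processing notes name the build GRCm38 (mm10). For the aligner, the counter, its strand setting and the annotation, nothing is given in the sources used here. The authors deposited 1 table with raw read counts and FPKM per gene and library, their mean FPKM per group, a log2 ratio of these means, and a p-value and FDR from a test the table does not name, per the file headers. No column of other samples was present (0).

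Counts were tested with edgeR 4.0.16 in R 4.3.3 (filterByExpr, TMM scaling, quasi-likelihood F test, Benjamini-Hochberg adjustment over all 14608 tested genes). CPM are TMM-scaled. The SE is the log2 fold change divided by the square root of F. A count of 3 equals 0.128 to 0.2 CPM. Alternatives were other scalings and filters, DESeq2 1.42.0, limma 3.58.1 on voom weights or on log2(FPKM + 1), a replicate block and each library left out. Scripts were tested on simulated data. FPKM in the 10 genes follow total-count scaling, with log2 ratios within 0.0461 of the counts.

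The members and lists were chosen with earlier results of these data known. Named genes are the 10, Cdkn1a, genes with exons overlapping the 10 (0 found), the 2 called genes with the smallest p per direction in each of 3 pathway lists, and the 3 genes most like Trp53. A gene that the rule names is not reported here. Others are said to be chosen after their values were seen. Coordinates are from GENCODE M21 and sequences from RefSeq on GRCm38.p6.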

Additional observations from a re-analysis of the deposited data

Results flagged for a closer look

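Zmat3 in chaetocin replicate 4, at 134 CPM, lay apart from the other 3 libraries of its group, at 138 to 139 CPM. The gap was 0.838 of the group's range, above the 95% critical value of Dixon's test for 4 samples. Of 22 groups examined (the 10 genes and Cdkn1a in both treatments) this 1 was flagged, and chance flags about 1 in 20. Without that library the log2 fold change of Zmat3 was -0.29 (edgeR adjusted p = 1.4e-09), against -0.30 with it.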

How the results depend on the processing

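Gdf15, Trp53, Phlda3, Trp53inp1 and Zmat3 kept direction and call in all 18 alternatives, with log2 fold changes of 1.22 to 1.38, 0.43 to 0.59, -0.88 to -0.71, -0.69 to -0.53 and -0.34 to -0.18. The other 5, at -0.16 to -0.02, lie near the 0.11 that separates TMM from total-count scaling. With total-count scaling 3 of the 10 were called lower, not 6, and Mdm2 was at 0.01009, Ccng1 at 0.00791, Sesn1 at 0.003016, Aen at 0.09649 and Btg2 at -0.04671. With limma on log2(FPKM + 1), filtered or not, 3 were lower, and the values were 0.008026, 0.007311, 0.04036, 0.08656 and -0.05397; with limma on log2(FPKM + 0.1) again 3, with 0.008087, 0.007337, 0.05028, 0.08809 and -0.05471. The 3 FPKM settings called 8 regulators lower in place of 15 and 11 other targets in place of 18. Over all genes they called 3957 to 4068 lower in place of 5662. With a filter of at least 1 CPM, Aen was at 0.0003907. FPKM in the 10 genes follow total-count scaling, with log2 ratios within 0.0461 of the counts, so the FPKM settings are no separate check of scaling. What the filter, or the test used on FPKM, adds was not tested. Mdm2, Ccng1 and Btg2 each lost their call, and Aen gained one as higher, in the same 4 settings (total-count and the 3 on FPKM).

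Leaving out each library in turn gave 2 to 2 of the 10 higher and 6 to 6 lower, 6030 to 6276 of all genes higher and 5538 to 5677 lower. Sesn1, uncalled in each of these, ranged from -0.0554 without chaetocin replicate 1 to -0.2019 without chaetocin replicate 3 (adjusted p = 0.0739 in edgeR). Aen, also uncalled in each, ranged from -0.03636 without TGF-β replicate 2 to -0.009858 without TGF-β replicate 3, and was also over 1.5 times its value without TGF-β replicate 1 (-0.03593) and chaetocin replicate 1 (-0.03297), and under it by as much without chaetocin replicate 2 (-0.0106). No pairing by replicate number stands in the labels. Same-numbered libraries correlated in their deviations over all tested genes at -0.0134 to 0.0318, and libraries of different number at -0.0643 to 0.0631. These values cannot exclude a shared batch that affects only some genes. With the replicate block 2 of the 10 were higher and 6 lower, with 6105 and 5643 of all genes, 8 and 15 regulators, 14 and 18 other targets, and 9 and 5 relatives, and no call among the 10 changed. Depth limits Sesn1 and relatives with few counts.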
